A study of Mus musculus with 24 samples.

Results

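Cd274, Icam1, Vcam1, Cd40 and Fas encode 5 surface molecules through which β cells meet immune cells, and their transcripts were followed in RNA-seq data of a mouse β cell line under inflammatory stress. The 5 genes were the rows of the deposited count table with these symbols, out of 17696 genes. MIN6, a β cell line derived from a mouse insulinoma, had been made into 3 stable lines by lentiviral transduction, puromycin selection and expansion of single clones. Scr cells carried the miRZip-000 vector with a scrambled sequence, and ZIP cells carried the miRZip-146a vector that expresses an antisense RNA to miR-146a-5p. OE cells carried an shMIMIC vector that overexpresses miR-146a-5p, marked with Turbo RFP, whereas both miRZip vectors carry copGFP. All 3 lines therefore hold an integrated lentiviral vector, and the insert and the clone, together with the vector type for OE, cannot be told apart in any comparison between lines. Each line was analysed without cytokines (Scr, ZIP and OE) and after 24 h in a mixture of IL-1β at 5 ng/ml, TNFα at 10 ng/ml and IFNγ at 100 ng/ml (Scr+Cy, ZIP+Cy and OE+Cy), with 4 libraries in each of the 6 groups. The labels do not say whether the 4 came from separate cultures, so p values measure the spread between these libraries, which may be technical.

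Cd274 encodes PD-L1, the ligand that engages PD-1 on T cells and restrains them. Icam1 and Vcam1 encode adhesion receptors of the immunoglobulin superfamily, which bind the leukocyte integrins LFA-1 and VLA-4. Cd40 and Fas belong to the TNF receptor family: CD40 signals through TRAF adaptors when it meets CD40 ligand on T cells, and Fas is a death receptor that recruits FADD and caspase-8 when it meets Fas ligand. In many tissues IFNγ raises these genes, in part through IRF1, and IL-1β and TNFα raise several of them through NF-κB. In islets, PD-L1 and Fas are known as molecules with opposite consequences for β cells met by T cells. MicroRNA miR-146a-5p is itself raised by NF-κB and is known to lower the adaptors Irak1 and Traf6.

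The microRNA at which the ZIP and OE vectors are aimed is shown first, because its seed (bases 2 to 8, in capitals) guides which transcripts it pairs with. Its mature sequence in the RefSeq table of build GRCm38.p6, on the minus strand at chr11:43374435-43374456, is on the next line.
mmu-miR-146a-5p: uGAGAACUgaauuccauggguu
None of the 5 genes held a 7-base match to the whole seed, AGTTCTC on the DNA strand, in the 3′ UTR of the GENCODE M21 transcript that lay closest to its interval in the table. Among 15542 tested genes with such a transcript, 10.7% held that match. The shorter 6-base match to bases 2 to 7 occurred 4 times in Cd274 and once each in Icam1 and Fas, with none in Vcam1 and Cd40, against 29.1% of the 15542 genes with at least 1. These shares take no account of length, and the Cd274 3′ UTR has 2683 bases against a median of 928 over the 15542 genes. The Cd274 match within chr19:29385727-29385752 is followed by an A, a form of 7-base match for which no share over all genes is given. A letter match is a description of these transcripts and not evidence of pairing in the cells. The Icam1 and Fas matches are shown with their flanks, on the plus strand of mm10 and with the matching bases in capitals, since each is the only one in its gene.
Icam1 site, chr9:21028537-21028562: ggactggcagtgGTTCTCtgctcctc
Fas site, chr19:34327413-34327438: aactcctggtgtGTTCTCtttgccag

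Promoter sequences were taken from RefSeq, from 250 bases before to 50 bases after the start of transcription, and were found for Cd274, Icam1 and Fas. They are shown because all 5 genes rose with cytokines, and IRF1 and NF-κB are among the factors known to act on such promoters. Both strands were searched for the GAS element (TTCNNNGAA), which is known from promoters that answer to IFNγ, for the IRF element (GAAANNGAAA) and for the NF-κB consensus. Capitals mark the GAS element and, in a search added after the sequences had been seen, the NF-κB consensus without its first base. All 3 sequences are from the plus strand of build GRCm38.p6.
Icam1 promoter, chr9:21015690-21015989: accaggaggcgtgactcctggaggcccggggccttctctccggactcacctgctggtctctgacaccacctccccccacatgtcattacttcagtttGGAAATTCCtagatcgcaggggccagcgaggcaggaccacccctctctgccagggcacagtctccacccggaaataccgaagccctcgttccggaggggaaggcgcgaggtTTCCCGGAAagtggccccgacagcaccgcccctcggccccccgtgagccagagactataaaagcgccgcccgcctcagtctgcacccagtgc
Fas promoter, chr19:34290409-34290708: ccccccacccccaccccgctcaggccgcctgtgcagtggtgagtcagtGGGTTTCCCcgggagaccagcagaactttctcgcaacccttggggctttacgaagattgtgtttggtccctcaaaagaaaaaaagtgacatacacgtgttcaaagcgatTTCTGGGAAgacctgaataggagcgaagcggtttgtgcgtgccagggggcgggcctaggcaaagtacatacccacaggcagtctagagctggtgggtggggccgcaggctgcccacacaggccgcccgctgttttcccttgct
Cd274 promoter, chr19:29367188-29367487: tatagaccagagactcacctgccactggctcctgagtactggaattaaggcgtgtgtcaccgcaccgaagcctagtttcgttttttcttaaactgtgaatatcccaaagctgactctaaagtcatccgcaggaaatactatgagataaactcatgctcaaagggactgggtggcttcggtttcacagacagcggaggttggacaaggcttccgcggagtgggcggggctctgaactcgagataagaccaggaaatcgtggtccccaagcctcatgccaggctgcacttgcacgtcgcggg
Icam1 and Fas each held 1 GAS element, TTCCCGGAA at -42 to -34 of Icam1 and TTCTGGGAA at -93 to -85 of Fas, and the Cd274 window held none. Of all 32851 promoters in the table, 8.30% held a GAS element. Neither the IRF element nor the full NF-κB consensus was found in these 3 windows, and they occurred in 3.44% and 8.46% of all promoters. The shortened NF-κB pattern was found once in Icam1 (GGAAATTCC, at -153 to -145) and once in Fas (GGGTTTCCC, at -202 to -194), but also in 26.6% of all promoters. These matches are letters in a window and say nothing of binding in MIN6 cells.

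Between 26657792 and 37168232 reads were assigned to genes per library, with a median of 30701023. Levels are given as CPM, reads of a gene scaled to a fixed total of reads per library, after TMM scaling, and replicate spread as the SD of 4 libraries. Transcripts of β cell markers were abundant in every library, with a summed level of 19349 to 44303 CPM for 10 genes. The 8 measured markers of leukocytes, which could bring these surface molecules with them, summed to at most 6.59 CPM, and Ptprc, which marks leukocytes, had 3 reads or fewer in every library of 5 groups. The 6 measured endothelial markers summed to at most 5.14 CPM. The 8 fibroblast markers reached 56.5 CPM in 1 ZIP library and 60.8 CPM in 1 Scr+Cy library. Their part in the results was not tested. An untreated library stood apart: 85 genes raised strongly by cytokines in Scr cells summed to 869 CPM in ZIP replicate 4, which was 3.60% of the mean in ZIP+Cy, against 0.606% to 0.952% in the other ZIP libraries. Results that rest on this library are given with and without it.

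**Figure D1:**
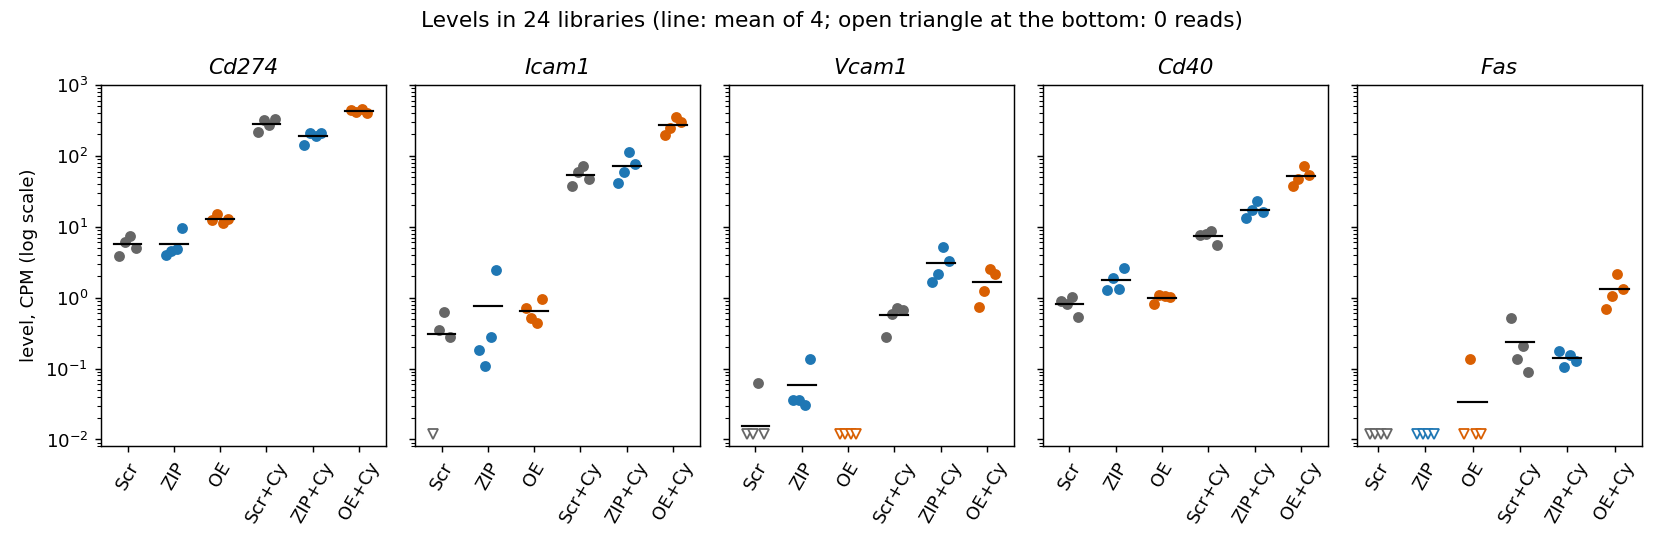
Levels of the 5 genes in CPM, on a log scale, in each of 24 libraries: grey Scr, blue ZIP, orange OE, each without and with cytokines (Cy). Black lines are means of 4 libraries and open triangles mark libraries with 0 reads. The treated libraries lie above the untreated libraries of their own line for every gene, while Vcam1 and Fas sit at or near 0 reads without cytokines.

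Vcam1 in Scr and OE, and Fas in Scr and ZIP, were at the detection limit, defined as 3 reads or fewer in every library of a group. Just above it, ZIP held 7 Vcam1 reads and OE 5 Fas reads over 4 libraries. No Fas read was assigned in any of the 4 Scr and 4 ZIP libraries, which allows a level of up to 0.0220 CPM in Scr and 0.0257 CPM in ZIP (3 reads over the 4 libraries). No Vcam1 read was assigned in OE, which allows up to 0.0220 CPM, and the Scr group held 2 Vcam1 reads in all. These limits cover counting error only. Cd274, Icam1 and Cd40 were above the limit in every group, although Icam1 had 0 reads in Scr replicate 1. Per kilobase of transcript, the mean levels in OE+Cy were 119 CPM for Cd274, 107 CPM for Icam1, 32.8 CPM for Cd40, 0.888 CPM for Fas and 0.480 CPM for Vcam1.

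Whether the cytokine mixture raised these genes was asked in each line. All 5 genes were higher with cytokines in all 3 lines, and in none of the 15 cases did treated and untreated libraries overlap. Of all genes, 11.5% had every treated library above every untreated one in Scr, 13.3% in ZIP and 20.7% in OE. In RNA from whole cultures, more transcript per cell and more cells that express a gene cannot be told apart. Calls needed a change of 1.5-fold or more together with an unadjusted p below 0.05 in edgeR's quasi-likelihood test, and adjusted p values are over all 17696 genes. By that rule 7.88% of all genes were called higher for Scr+Cy, 7.30% for ZIP+Cy and 13.0% for OE+Cy, each against its own untreated line. Calls in either direction covered 10.6%, 12.5% and 21.0% of genes. Against untreated Scr cells, all 5 genes were also called higher in ZIP+Cy and in OE+Cy, where 12.2% and 18.4% of genes were called higher. These comparisons share the Scr libraries with that of Scr+Cy.

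**Figure D2:**
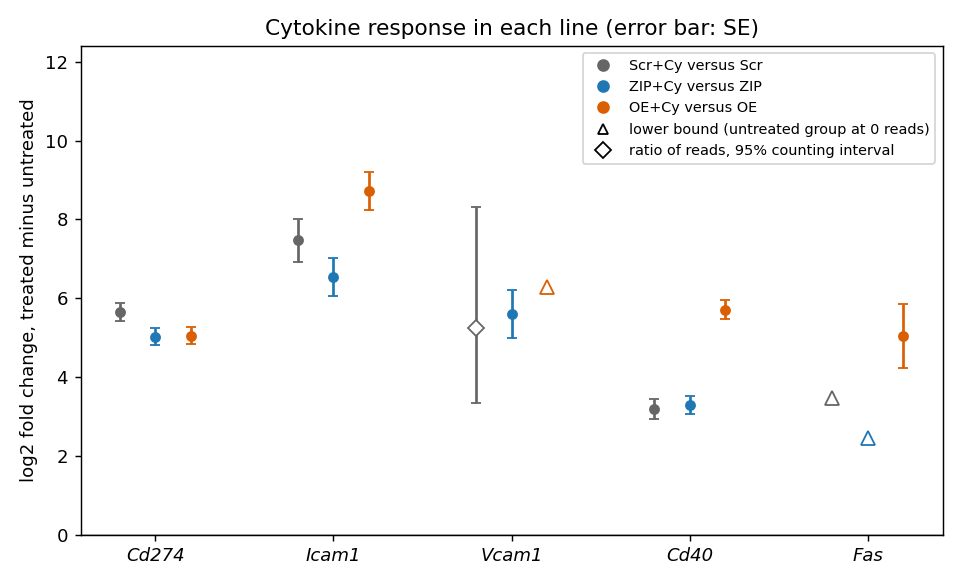
Log2 fold change of each gene, treated minus untreated, in Scr (grey), ZIP (blue) and OE (orange), with the SE as error bar. Open triangles are lower bounds where the untreated group had 0 reads, and the open diamond is a ratio of reads with its 95% counting interval where Scr held 2 reads. Cd40 rose by a log2 fold change of 5.71 in OE against 3.19 in Scr and 3.29 in ZIP, whereas Cd274 lay between 5.03 and 5.65 in all 3 lines.

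Cd274, the PD-L1 gene, was the most abundant of the 5 with cytokines. Its reads in replicates 1 to 4 were 145, 211, 240 and 164 in Scr and 7049, 9159, 7869 and 10906 in Scr+Cy. In ZIP they were 111, 123, 159 and 285, and in ZIP+Cy 4046, 6158, 4995 and 6493. OE held 417, 558, 414 and 392 reads and OE+Cy 12658, 12258, 14695 and 13274. The highest untreated library, in OE, was thus far below the lowest treated library, in ZIP+Cy. The mean level rose from 5.64 ± 1.52 to 283 ± 50.2 CPM in Scr, from 5.76 ± 2.57 to 189 ± 33.0 CPM in ZIP and from 13.0 ± 1.57 to 431 ± 27 CPM in OE (SD, n = 4 each). The log2 fold changes were 5.65 ± 0.22 (SE) in Scr, 5.03 ± 0.22 in ZIP and 5.05 ± 0.21 in OE, with adjusted p values of 1.22e-15, 8.44e-15 and 1.72e-15. Treated levels differed little between libraries of one group, by 1.15-fold from lowest to highest in OE+Cy and by 1.51-fold in Scr+Cy and ZIP+Cy.

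In order of level, Cd274 ran from OE+Cy through Scr+Cy, ZIP+Cy and OE down to ZIP and Scr, and only the last pair overlapped between libraries. Without cytokines it was 2.32-fold higher in OE than in Scr (log2 fold change 1.21 ± 0.21, adjusted p = 4.29e-05) and 2.25-fold higher than in ZIP (1.17 ± 0.22, adjusted p = 7.33e-05). With cytokines the difference between OE and Scr was smaller, at 1.52-fold (0.61 ± 0.17, adjusted p = 0.00493), and just passed the limit of 1.5. It fell under that limit without Scr+Cy replicate 1 (log2 fold change 0.50) or OE+Cy replicate 3 (0.58), with the direction kept. ZIP+Cy lay below Scr+Cy by a log2 difference of -0.58 ± 0.17 (adjusted p = 0.0142), without overlap of libraries but at a fold of 0.668 that just missed the limit. Leaving out Scr+Cy replicate 1 or 3, or any 1 of the 4 ZIP+Cy libraries except replicate 1, moved it past the limit, to between -0.59 and -0.69. OE+Cy was 2.28-fold above ZIP+Cy (1.19 ± 0.18, adjusted p = 3.52e-06).

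Icam1, the adhesion receptor bound by LFA-1, had a larger fold change than Cd274 and Cd40 in each line. Its reads were 0, 12, 20 and 9 in Scr and 1216, 1744, 2079 and 1580 in Scr+Cy. ZIP held 5, 3, 9 and 74 reads and ZIP+Cy 1168, 1715, 2984 and 2376, so replicate 4 alone carried most of the untreated ZIP signal. OE held 24, 19, 16 and 29 reads and OE+Cy 5582, 7202, 11039 and 9976. Mean levels rose from 0.312 ± 0.257 to 54.1 ± 14.8 CPM in Scr, from 0.764 ± 1.15 to 72.8 ± 31.4 CPM in ZIP and from 0.658 ± 0.228 to 272 ± 67.6 CPM in OE. In Scr the log2 fold change was 7.46 ± 0.53 (adjusted p = 8.51e-11) and in OE 8.71 ± 0.48 (adjusted p = 2.99e-13). In ZIP it was 6.54 ± 0.47 (adjusted p = 9.68e-11), and 8.51 (adjusted p = 1.43e-11) without ZIP replicate 4. Against Scr, the log2 fold change of ZIP+Cy moved from 7.89 to 8.48 and that of OE+Cy from 9.80 to 10.39 without Scr replicate 3.

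With cytokines, Icam1 was 5.04-fold higher in OE+Cy than in Scr+Cy (2.33 ± 0.31 on the log2 scale, adjusted p = 7.47e-07) and 3.75-fold higher than in ZIP+Cy (1.91 ± 0.30, adjusted p = 9.71e-06). ZIP+Cy and Scr+Cy overlapped and were not told apart (0.43 ± 0.30, adjusted p = 0.313). Without ZIP+Cy replicate 1 the difference was called by the rule on fold and unadjusted p (0.64, adjusted p = 0.129). No untreated comparison of Icam1 was called. There the sign of the ZIP values rested on 1 library: the log2 difference of ZIP minus Scr was 1.35 ± 0.97 with ZIP replicate 4 and -0.62 without it.

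Vcam1, the receptor bound by VLA-4, stayed a rare transcript even with cytokines. Scr held 0, 0, 2 and 0 reads and Scr+Cy 9, 17, 21 and 22. ZIP held 1, 1, 1 and 4 reads and ZIP+Cy 48, 63, 137 and 101. OE held no read and OE+Cy 21, 37, 81 and 70. Treated libraries were above the untreated ones in each line, with means of 3.09 ± 1.58 CPM in ZIP+Cy, 1.67 ± 0.828 CPM in OE+Cy and 0.561 ± 0.197 CPM in Scr+Cy. In Scr the ratio of treated to untreated reads, scaled by depth, was 37.9 with a 95% exact counting interval of 10.1 to 319, and both untreated reads came from Scr replicate 3. In OE the level was at least 77.5-fold higher with cytokines, computed against 3 reads over the untreated group. In ZIP the log2 fold change was 5.60 ± 0.61 (adjusted p = 4.31e-07), and 6.33 without ZIP replicate 4, which held 4 of the 7 untreated reads.

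Vcam1 was the 1 gene of the 5 whose highest treated mean was in ZIP+Cy. It was 5.48-fold higher in ZIP+Cy than in Scr+Cy (2.45 ± 0.46 on the log2 scale, adjusted p = 3.25e-04) and 2.97-fold higher in OE+Cy than in Scr+Cy (1.57 ± 0.46, adjusted p = 0.00668). Libraries of ZIP+Cy and OE+Cy overlapped, and OE+Cy minus ZIP+Cy was -0.88 ± 0.42 on the log2 scale with an unadjusted p of 0.0505, so it was not called. That comparison passed the rule in the filtered fit, in the fit of those 2 groups alone and without any 1 of ZIP+Cy replicates 1 and 2 and OE+Cy replicates 3 and 4, at log2 values between -0.88 and -1.17. It was also called with replicates as a block (-0.90, adjusted p = 0.00382). Without cytokines Vcam1 was called lower in OE than in ZIP, by at least 2.73-fold, on 0 against 7 reads, and that call was lost without ZIP replicate 4.

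Cd40, the receptor of CD40 ligand, was present at a low level in all untreated libraries. Its reads were 33, 28, 33 and 17 in Scr, 35, 52, 43 and 77 in ZIP and 27, 40, 38 and 31 in OE. With cytokines they were 246, 232, 258 and 183 in Scr+Cy and 378, 493, 606 and 498 in ZIP+Cy. OE+Cy held 1064, 1392, 2264 and 1764. The treated groups formed 3 steps without overlap, with OE+Cy at 52.3 ± 14.5 CPM, ZIP+Cy at 17.4 ± 4.22 CPM and Scr+Cy at 7.48 ± 1.42 CPM. The rise was 9.12-fold in Scr (log2 fold change 3.19 ± 0.27, adjusted p = 1.40e-09), 9.77-fold in ZIP (3.29 ± 0.23, adjusted p = 6.83e-11) and 52.4-fold in OE (5.71 ± 0.25, adjusted p = 3.54e-15). Between treated lines, OE+Cy was 7.01-fold above Scr+Cy (2.81 ± 0.20, adjusted p = 1.91e-11) and 3.01-fold above ZIP+Cy (1.59 ± 0.19, adjusted p = 1.02e-07), and ZIP+Cy was 2.33-fold above Scr+Cy (1.22 ± 0.20, adjusted p = 3.51e-05). Untreated ZIP cells were also 2.17-fold above Scr (1.12 ± 0.32, adjusted p = 0.00905), at 1.77 ± 0.609 against 0.813 ± 0.213 CPM. That log2 difference ran from 0.87 to 1.26 with single libraries left out, lowest without ZIP replicate 4. OE minus Scr was 0.29 ± 0.34 without cytokines (adjusted p = 0.515) and their libraries overlapped. OE was called lower than ZIP (-0.83 ± 0.31, adjusted p = 0.0250), a call lost without ZIP replicate 4 (-0.59, adjusted p = 0.135).

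Fas, the death receptor, had the fewest reads of the 5 genes in each treated group. Scr and ZIP held no read, and OE held 5 reads, all in replicate 2. Scr+Cy held 17, 4, 6 and 3 reads and ZIP+Cy 5, 3, 4 and 4. OE+Cy held 20, 31, 69 and 44 reads, above every other library. With cytokines the level was at least 11-fold higher in Scr and at least 5.43-fold higher in ZIP, each against 3 reads over the untreated group. In OE the log2 fold change was 5.05 ± 0.81 (adjusted p = 5.05e-05), with the untreated level resting on replicate 2, without which OE held no read. OE+Cy reached 1.32 ± 0.633 CPM and was 5.41-fold above Scr+Cy (log2 fold change 2.43 ± 0.65, adjusted p = 0.00431), and 9.18-fold above ZIP+Cy (3.20 ± 0.70, adjusted p = 7.78e-04). Without Scr+Cy replicate 1, which held 17 of the 30 reads of its group, the log2 fold change of OE+Cy over Scr+Cy was 3.17. ZIP+Cy and Scr+Cy overlapped, with a log2 difference of -0.76 ± 0.74, or -0.03 without Scr+Cy replicate 1. Below OE+Cy, each group overlapped with the next in level. Fas was called higher in untreated OE than in Scr, by at least 1.66-fold (unadjusted p = 0.0417, adjusted p = 0.0775), on those 5 reads alone, and the libraries overlapped.

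Counted over the 5 genes, the differences between lines were as follows. In ZIP against Scr 1 gene was called, Cd40, where 14.9% of all genes were called. OE against Scr gave 2, Cd274 and Fas, where 25.7% were called. With cytokines, ZIP+Cy against Scr+Cy gave 2, Vcam1 and Cd40, both higher, where 15.8% were called. OE+Cy against Scr+Cy gave all 5, all higher, where 13.7% of genes were called higher and 28.5% in either direction. OE against ZIP gave 3 (27.3% of all genes), with Cd274 higher and Vcam1 and Cd40 lower. OE+Cy against ZIP+Cy gave 4, all higher (29.0% of all genes). Comparisons that share a group are not independent of each other.

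**Figure D3:**
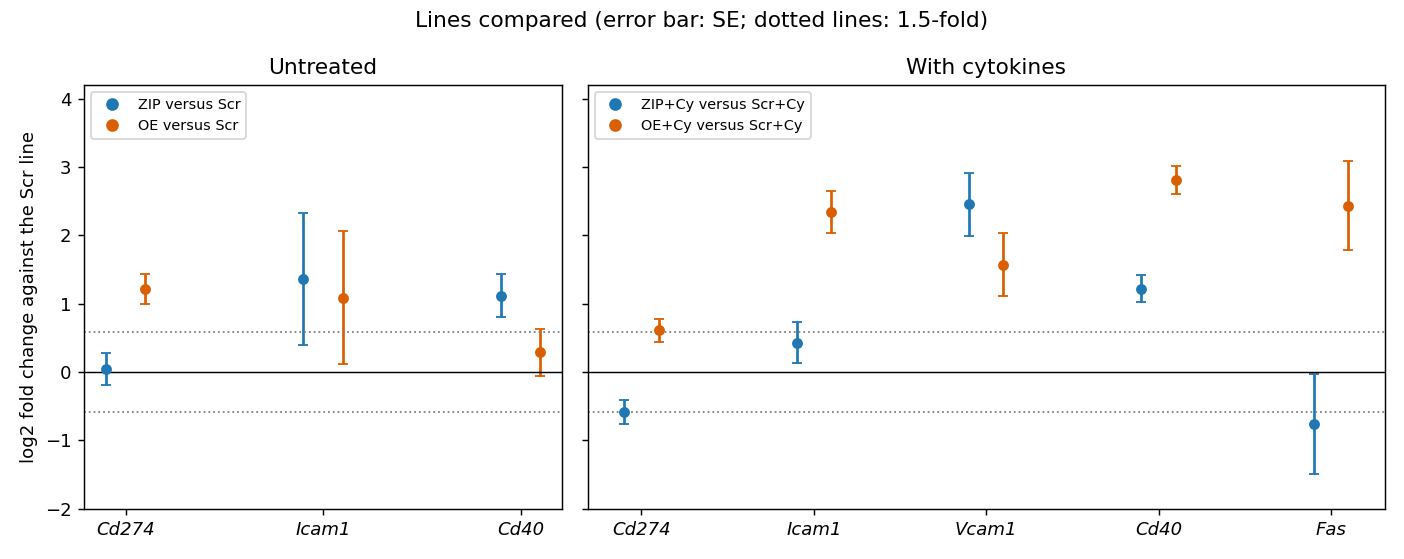
Log2 fold change of ZIP (blue) and OE (orange) against Scr, left without cytokines for the 3 genes above the detection limit in all groups, right with cytokines for all 5 genes. Error bars are SE and dotted lines mark a fold change of 1.5. All 5 OE+Cy values lie above the upper dotted line, from 0.61 for Cd274 to 2.81 for Cd40, while ZIP+Cy values run from -0.76 for Fas to 2.45 for Vcam1.

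Whether the cytokine response itself differed between lines was tested as an interaction, called at an adjusted p under 0.05 with no fold limit. Cd40 responded more in OE than in Scr, by a log2 difference of 2.52 ± 0.40 (adjusted p = 1.13e-04), and more in OE than in ZIP, by 2.42 ± 0.36 (adjusted p = 5.39e-05). In these tests 20.0% and 20.6% of all genes were called. The values stayed between 2.32 and 2.68, and between 2.18 and 2.59, when each library was left out in turn. Between ZIP and Scr the Cd40 responses were not told apart (0.10 ± 0.39), and 0.0565% of genes were called there, 10 in number, or 45 with replicates as a block. Cd274 responded less in OE than in Scr by -0.60 ± 0.28 and less in ZIP than in Scr by -0.62 ± 0.29, neither called (adjusted p = 0.132 and 0.761). The first of these was called when only the 4 groups compared were fitted (-0.63, adjusted p = 0.0453). The second ran from -0.80 to -0.26 with single libraries left out, and was -0.26 without ZIP replicate 4. For Icam1, OE minus ZIP was 2.17 ± 0.89 (adjusted p = 0.0885) with ZIP replicate 4 and 0.20 without it. It was called without ZIP replicate 2 (2.52, adjusted p = 0.0497), without ZIP+Cy replicate 3 (2.48, adjusted p = 0.0373) and with replicates as a block (2.20, adjusted p = 0.0229). Icam1 interactions against Scr were 1.25 ± 1.12 for OE, or 0.66 without Scr replicate 3, and -0.93 ± 1.02 for ZIP, or 1.05 without ZIP replicate 4. Fitted interactions of Vcam1 and Fas are not given, a choice made after the reads were seen, since every one of them includes an untreated group with 0 to 2 reads.

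Untreated libraries differed in ways that moved with these genes. ZIP replicate 4, with the highest level of the 85 cytokine-raised genes, also had the highest levels of Cd274, Icam1, Vcam1 and Cd40 among the ZIP libraries, at 9.58, 2.49, 0.134 and 2.59 CPM. As a share of the mean in ZIP+Cy these were 5.07%, 3.42%, 4.35% and 14.9%. Scr replicate 3 had the second highest sum of the 85 genes (396 CPM, 1.85% of the mean in Scr+Cy) and the highest Cd274, Icam1, Vcam1 and Cd40 among Scr libraries, at 7.50, 0.625, 0.0625 and 1.03 CPM. OE libraries had sums of 129.7 to 170.1 CPM with Cd274 at 11.4 to 15.2 CPM, above every Scr and ZIP library. The part of these libraries in the results was not tested beyond the values without them.

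**Figure D4:**
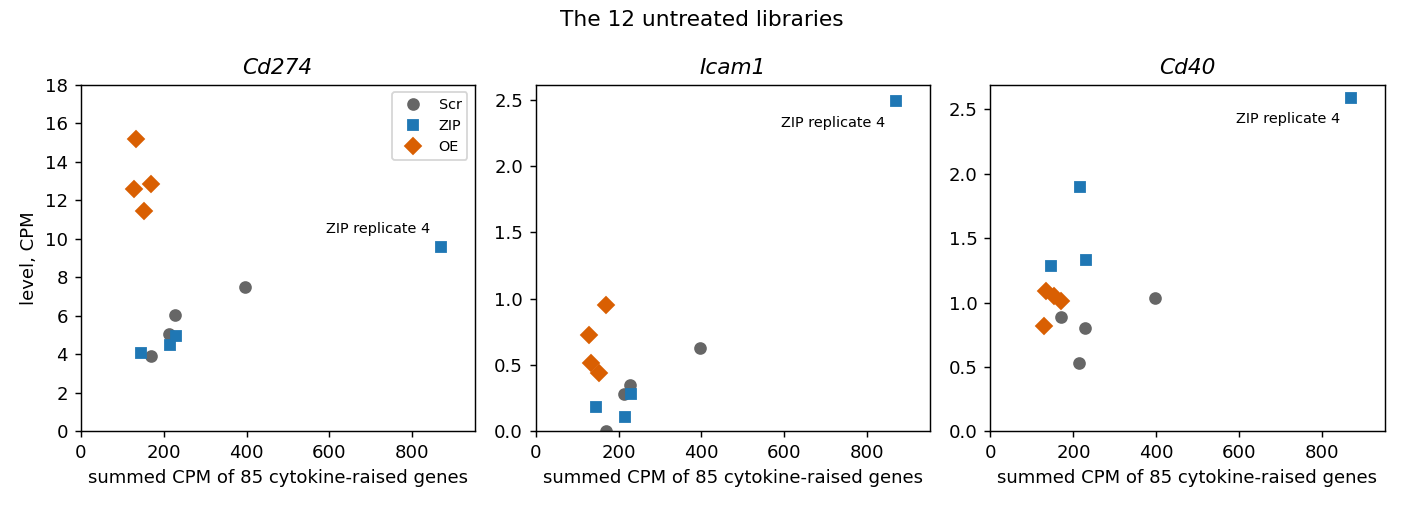
Level of Cd274, Icam1 and Cd40 in CPM against the summed CPM of 85 other genes raised by cytokines in Scr cells, in the 12 untreated libraries (grey circles Scr, blue squares ZIP, orange diamonds OE). ZIP replicate 4 lies far to the right at 869 CPM and has the highest Icam1 and Cd40, while the 4 OE libraries have the highest Cd274 at sums of 129.7 to 170.1 CPM.

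In OE+Cy, 4 of the 5 genes ordered the replicates alike: Icam1, Vcam1, Cd40 and Fas were highest in replicate 3, followed by replicates 4, 2 and 1. Cd274 ordered them 3, 1, 2 and 4. Icam1 and Vcam1 in ZIP+Cy and Vcam1 in Scr+Cy had that same order of 3, 4, 2 and 1, and the labels number the replicates of all groups alike. Over all 24 libraries the correlation of log2 CPM between pairs of the 5 genes ran from 0.727 (Vcam1 with Fas) to 0.980 (Cd274 with Icam1), which is a description of libraries that share the same 6 groups. The genes most like Cd274 were Ifih1, an RNA sensor (r = 0.993), Tapbpl, a chaperone of MHC class I (0.989), and Rsad2, the antiviral protein viperin (0.987). For Icam1 they were Oas3 (0.989), Oas1a (0.988) and Ifi203 (0.987), of which Oas3 and Oas1a encode antiviral oligoadenylate synthetases. For Vcam1 they were Meiob (0.976), Serpina3g (0.969) and Phf11d (0.966), and for Cd40 Gm4070 (0.983), Znfx1 (0.982) and Gvin1 (0.981). For Fas they were Abcc4 (0.955), Arid5a (0.952) and Rela, the p65 subunit of NF-κB (0.948). Over the 6 group means, 3 of these 15 genes remained among the 3 most alike of their gene: Meiob, Gm4070 and Abcc4.

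Neighbouring genes were described for the comparisons between lines. In mm10, Cd274 lies on the plus strand at chr19:29367438-29388094 and Fas on the plus strand at chr19:34290659-34327770. Genes within 5 Mb on either side were lower in both ZIP and OE than in Scr, with medians of -0.43 and -0.41 over 33 genes around Cd274 and of -0.39 and -0.46 over 49 genes around Fas on the log2 scale, and the windows overlap. With cytokines these medians were -0.42 and -0.43 around Cd274 and -0.43 and -0.45 around Fas. The Cd274 difference of -0.58 between ZIP+Cy and Scr+Cy was thus -0.17 relative to its neighbours, and that between OE+Cy and Scr+Cy was 1.04. The part of this stretch of the chromosome in the results was not tested. Around Cd40 (chr2:165055636-165071654, plus strand) the 72 neighbours had a median of -0.17 in OE and -0.02 in ZIP against Scr. Around Icam1 (chr9:21015940-21028814, plus strand) and Vcam1 (chr3:116110020-116129688, minus strand) the medians of 68 and 21 neighbours were between -0.03 and 0.12 in the untreated lines against Scr.

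Other genes of the same pathways were counted in lists, with the 5 genes left out, beside 7.88%, 7.30% and 13.0% of all genes called higher in Scr+Cy, ZIP+Cy and OE+Cy. Of 18 measured B7 family and checkpoint ligands, 8 rose and none fell in Scr+Cy, 5 rose and 1 fell in ZIP+Cy, and 5 rose and 1 fell in OE+Cy. The median log2 fold changes were 0.52, 0.55 and 0.44, beside 0.00, -0.01 and 0.02 over all genes. The 8 called in Scr+Cy include rare transcripts, named after their values were seen. Vtcn1 averaged 0.146 ± 0.293 CPM there, with 19 reads in 1 library (adjusted p = 0.0576). Pdcd1lg2 had at most 2 reads in a Scr+Cy library, and Vsir averaged 0.709 CPM. Lgals9, which encodes galectin-9, rose by 6.82 ± 0.57, 6.23 ± 0.46 and 11.31 ± 0.53 on the log2 scale, from 0.145 to 16.4 CPM in Scr, from 0.439 to 33.8 CPM in ZIP and from 0.102 to 252 CPM in OE. Icosl, the ligand of ICOS, rose from 4.67 ± 0.591 to 39.4 ± 19.1 CPM in OE and from 3.58 ± 0.440 to 6.23 ± 1.04 CPM in Scr. Cd47, the signal that restrains phagocytes, rose from 114 ± 1.76 to 212 ± 16.3 CPM in Scr and from 114 ± 3.95 to 327 ± 19.6 CPM in OE. Pdcd1lg2, which encodes PD-L2, the other ligand of PD-1, was at the detection limit in every library, as were Btla and Btn2a2.

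Of 18 measured adhesion genes, 7 rose and 1 fell in Scr+Cy, 9 rose and 1 fell in ZIP+Cy, and 10 rose and 1 fell in OE+Cy, with medians of 0.35, 0.94 and 0.91. Cd44, the hyaluronan receptor, rose by 2.27 ± 0.18 in Scr, 2.23 ± 0.15 in ZIP and 4.00 ± 0.17 in OE (log2 fold change ± SE). Madcam1, a mucosal ligand of integrins, rose from 3 reads or fewer per library to 1.46, 2.24 and 4.91 CPM. Pecam1, an adhesion molecule of endothelium and platelets, rose from 0.0868 to 0.699 CPM in Scr and from 0.949 to 2.34 CPM in OE. E-selectin (Sele) never exceeded 7 reads in a library.

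Of 24 measured TNF receptors, 4 rose in Scr+Cy and 6 in ZIP+Cy with none lower, and 9 rose and 3 fell in OE+Cy, with medians of 0.23, 0.12 and 0.69, where 7.88%, 7.30% and 13.0% of all genes were called higher. Tnfrsf14, the receptor HVEM and also one of the checkpoint list, rose in all 3 lines, by log2 fold changes of 2.80 ± 0.20, 3.11 ± 0.22 and 3.72 ± 0.22. Tnfrsf10b, the mouse TRAIL death receptor, rose by 0.88, 1.15 and 2.62 on the log2 scale from an untreated level of 2.17 ± 0.350 CPM in Scr, 0.514 ± 0.185 CPM in ZIP and 0.452 ± 0.143 CPM in OE. Tnfrsf1b and Tnfrsf11b stayed under 1 CPM in all groups apart from Tnfrsf11b in OE+Cy, at 3.84 ± 1.23 CPM.

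Of 9 measured counter-receptors and ligands of the 5 molecules, 1 rose in Scr+Cy, 1 fell in ZIP+Cy, and 2 rose and 1 fell in OE+Cy, with medians of 0.31, -0.07 and 0.86, beside 7.88%, 7.30% and 13.0% of all genes called higher. Itgam was called higher in Scr+Cy and lower in ZIP+Cy (adjusted p = 0.136 and 0.0925), on at most 32 reads in a library. Most of the level in Scr+Cy (0.147 ± 0.251 CPM) and in untreated ZIP (0.302 ± 0.580 CPM) came from 1 library each. In OE+Cy Itgb7 and Itgb2 were higher and Itgal lower. Fas ligand (Fasl) was at the detection limit in every library, and Pdcd1, the PD-1 gene, averaged at most 0.402 CPM, in OE+Cy. Integrin chains Itgam, Itgb2 and Itgb7 averaged under 1 CPM in all groups, whereas the chains of VLA-4 had higher levels, Itga4 at group means of 12.3 to 19.5 CPM and Itgb1 at 363 to 431 CPM. Both were named after their values were seen. Among 16 measured genes that handle these molecules or act directly below them, 6, 5 and 5 rose and none fell, with medians of 0.43, 0.49 and 0.45. Birc3, the inhibitor of apoptosis cIAP2 that acts with TRAF2 below CD40, rose by 3.52 ± 0.18, 3.97 ± 0.20 and 4.56 ± 0.18 on the log2 scale. Traf2 rose by 0.61, 0.72 and 0.86, and Traf3, an inhibitory adaptor of CD40, by 1.05 in Scr and 0.75 in ZIP. In OE, Traf3 went from 81.1 ± 3.22 to 108 ± 3.40 CPM, under the limit of 1.5-fold.

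Of 15 measured factors known to act on such promoters, 12, 12 and 14 rose and none fell, with medians of 2.93, 2.96 and 2.41. In Scr, Irf1 rose from 28.3 ± 1.90 to 412 ± 31.6 CPM. In OE+Cy against Scr+Cy 5 of the 15 were called higher and none lower, Irf1 among them at a log2 fold change of 0.83 ± 0.09. There 13.7% of all genes were called higher and 28.5% in either direction. In ZIP+Cy against Scr+Cy none was called higher and 1 lower, where 7.11% of all genes were called higher and 15.8% in either direction. The lower one was Irf8, a lymphoid and myeloid factor, which averaged 0.171 CPM in ZIP+Cy, 0.900 CPM in Scr+Cy and 13.1 CPM in OE+Cy. The plot of called shares shows the lists side by side.

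**Figure D5:**
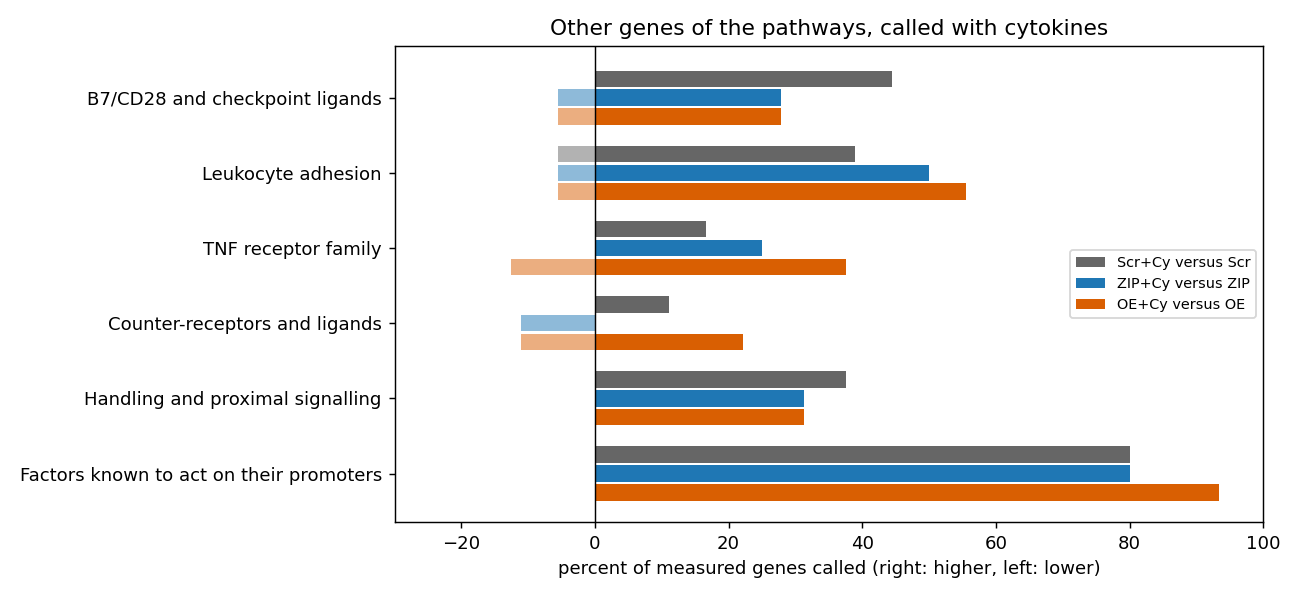
Share of the measured genes of each list called higher (right of 0, percent) and lower (left of 0, paler) with cytokines in Scr (grey), ZIP (blue) and OE (orange). Factors acting on the promoters have the largest share, 12 of 15 in Scr and ZIP and 14 of 15 in OE, and counter-receptors the smallest, 1 of 9, 0 of 9 and 2 of 9 called higher.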

How the data were processed

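Polyadenylated RNA of 24 MIN6 samples was sequenced by the authors on a NovaSeq as paired reads, aligned with STAR and quantified in Partek Flow against mm10 and RefSeq transcripts, with rarely read genes removed. The submitters' processing notes name STAR 2.7.8a and Partek Flow 11.0.24.0204. The deposited estimated counts, of which 30.1% were not whole (tolerance 1e-09), were rounded. The deposited normalized signal matched these counts divided by 1 factor per library, within 0.1% for at least 99.99% of ratios in each library, and was not tested. Use of strand in counting is not given in the sources used here.

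A single edgeR 4.0.16 quasi-likelihood fit (R 4.3.3, TMM scaling) held 6 group means over 24 libraries and 17696 genes, with no filter. Calls needed a change of 1.5-fold or more and an unadjusted p below 0.05, the study's thresholds, and interactions at a Benjamini-Hochberg adjusted p under 0.05. Adjusted p values are over all genes. The SE is the absolute log2 fold change divided by the square root of F. Levels are CPM, as mean ± SD. Groups with 0 reads were set to 3 reads over the group for a bound. With 1 to 3 reads in a group, a ratio with a 95% exact interval is given. Intervals and bounds cover counting error only. The scripts were tested on simulated data. The members, lists and tests were chosen with earlier results of these data known. Of each list, up to 4 genes called in most of the 3 cytokine comparisons, ties broken by size, could be named. The most alike genes were the 3 with the highest Pearson correlation of log2 CPM.

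Same-numbered replicates deviated together in 6 comparisons, where every correlation of deviations was over 0.1: Scr+Cy against Scr (0.413 to 0.626), ZIP+Cy against ZIP (0.261 to 0.397), OE+Cy against OE, ZIP against Scr, ZIP+Cy against Scr+Cy and OE against ZIP. In ZIP against Scr, however, ZIP replicates 3 and 4 correlated better with a Scr library of another number. The labels give all groups the same replicate numbers and codes. Alternatives were DESeq2 1.42.0, its size factors in edgeR, a filter on low counts, the groups compared alone, replicates as a block, adjusted p with the fold limit, and each library left out.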

Additional observations from a re-analysis of the deposited data

Results flagged for a closer look

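In ZIP replicate 4, Cd274 stood at 9.58 CPM against 4.06 to 4.93 CPM in the other ZIP libraries, Icam1 at 2.49 CPM against 0.109 to 0.279 CPM, and Vcam1 at 0.134 CPM (4 reads) against 0.0310 to 0.0366 CPM. Each of these lay farther from the rest of its group than Dixon's 95% limit for 4 samples. The same held on very few reads for Vcam1 in Scr replicate 3, at 0.0625 CPM (2 reads, with 0 in the others), and for Fas in OE replicate 2, at 0.136 CPM (5 reads, with 0 in the others). In all, 30 sets of 4 values were checked, 5 genes in each of 6 groups. For normally distributed values chance alone passes this limit in about 1 of 20. That rate does not hold for sets with reads in a single library, which always pass. The genes share the same libraries, so the checks are not independent. The cause of these single-library values was not tested.

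The cytokine response of Cd40 differed between lines by the interaction test, by a log2 difference of 2.52 for OE minus Scr and of 2.42 for OE minus ZIP. Line, clone and vector cannot be told apart in either.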

How the results depend on the processing

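Over all alternatives, 968 fold changes of the 5 genes were recomputed, and 936 kept their direction, 15 turned, 3 fell to exactly 0 and 14, of Fas in ZIP against Scr with no read in either, started from 0. Among them 13 lost and 21 gained the call. Of 220 counts of called genes among the 5, 205 stayed within 1.5 times. All 5 genes kept their call in each line's cytokine comparison.

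For OE against Scr the count fell from 2 to 1 with adjusted p, with the low-count filter, with replicates as a block and with only the groups compared, since Fas was lost. It was 1 to 2 with single libraries left out (1 when any Scr library or OE replicate 2 was left out). The other counts with a library left out were 1 to 2 for ZIP against Scr (2 without Scr replicate 3, when Vcam1 was called), 1 to 4 for OE against ZIP (1 without ZIP replicate 4, 4 with Fas added without OE replicate 1, 3 or 4) and 1 to 2 for the OE minus ZIP interaction. With cytokines they were 2 to 3 for ZIP+Cy against Scr+Cy (3 when Cd274 or Icam1 was added), 4 to 5 for OE+Cy against Scr+Cy (4 when Cd274 missed the fold limit) and 4 to 5 for OE+Cy against ZIP+Cy.

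The interaction count of OE minus ZIP rose from 1 to 2 with the replicate block, which added Icam1, and that of OE minus Scr from 1 to 2 with only the groups compared, which added Cd274. In the 6 comparisons where every correlation of same-numbered replicates was over 0.1, the block changed no call of the 5 genes. OE+Cy against ZIP+Cy was not among them, since the lowest correlation was 0.0872, though each OE+Cy library correlated best with the ZIP+Cy library of its own number. There the block added a call of Vcam1 (log2 fold change -0.90, adjusted p = 0.00382), which was lower in OE+Cy in each of the 4 same-numbered pairs. Over all genes, interaction calls fell from 3538 to 1517 for OE minus Scr and from 3647 to 1512 for OE minus ZIP once the fold limit was added, and rose from 10 to 45 with the block and to 41 with DESeq2 for ZIP minus Scr. Apart from those due to the added limit, the causes were not tested.

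Directions turned with single libraries left out, for uncalled values alone. The log2 ranges for ZIP minus Scr were -0.32 to 0.23 for Cd274 and -0.62 to 1.95 for Icam1, and Icam1 in OE minus ZIP ran from -0.60 to 1.71. For interactions they were -1.5 to 1.05 for Icam1 and -0.070 to 0.34 for Cd40 in ZIP minus Scr, and -0.34 to 0.16 for Cd274 in OE minus ZIP. Depth limits Vcam1 and Fas, whose untreated groups held 0 to 7 reads.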

Other observations

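Itgal and Msn are given here for their differences between lines, and were picked after their values were seen. Itgal, the α chain of the ICAM-1 receptor LFA-1, averaged 17.4 ± 2.17 CPM in OE and 9.20 ± 2.48 CPM in OE+Cy, against at most 0.531 CPM in any Scr or ZIP group (SD, n = 4 each), while Itgb2, which encodes the β chain of LFA-1, stayed at or below 0.332 CPM in all 6 groups. Msn, which encodes moesin, the linker of adhesion receptors to the actin cytoskeleton, averaged 14.4 ± 1.83 CPM in Scr, 0.660 ± 0.757 CPM in ZIP and 0.718 ± 0.560 CPM in OE. With cytokines Msn averaged 27.4 ± 1.81 CPM in Scr+Cy, 5.32 ± 2.37 CPM in OE+Cy and 0.989 ± 0.349 CPM in ZIP+Cy. Each line is 1 clone, so these differences cannot be told apart from differences between clones.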
